A study of Mus musculus with 6 samples.

Results

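The comparison described here is that between the livers of mice carrying a colorectal tumor in the cecum, taken before metastasis (premetastatic niche, PMN), and the livers of sham mice. Its samples were taken by their labels, and it covers 4 of the 6 livers of the series, 2 PMN and 2 sham, while the 2 livers with metastases after injection of tumor cells into the spleen were left out of the fit. The PMN mice carried CT26 cells, an established mouse colorectal carcinoma line, and the sham mice received PBS in place of cells. All 4 livers were collected on day 21. The labels read only intra-C and control, with sham in the library name of the controls, and the site of implantation comes from the description of the models in the study. That description gives BALB/c mice for the CT26 models and an age range for all tumor models together, but no age or sex of the single mice. Every tumor was of the 1 line at the 1 site and time, so that the effect of the tumor, of its site and of surgery with live cells cannot be told apart, and whether small metastases were present was not tested here. RNA was prepared from unsorted liver, so that each value sums over all liver cells, and fewer cells of a type and less RNA per cell cannot be told apart in any result.

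A primary tumor can change a distant organ before its cells arrive there, and such an organ is called a premetastatic niche when it then favors their growth. The liver responds to tumor and inflammatory cytokines with the acute phase response, in which interleukin 6 acts through STAT3, and interleukin 1 through NF-kB and C/EBP factors, on hepatocytes. Hepatocytes then secrete more serum amyloid A, fibrinogen, haptoglobin and other plasma proteins, and their transcripts for drug metabolism commonly decline. Neutrophils, monocytes and resident macrophages (Kupffer cells) are the other cells most studied in this setting.

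The authors deposited raw counts, and the totals were 36048765 and 38830932 in the sham livers and 43368309 and 32838321 in the PMN livers. Levels are given as CPM, counts scaled to the TMM-adjusted library size, with sham livers 1 and 2 and PMN livers 1 and 2 always in this order. At these depths a count of 0, which still allows 3 counts, stands for at most 0.0702 to 0.0962 CPM. This floor covers counting error only. A set of 100 genes with the highest counts held 44.9% and 44.2% of a sham library and 56.9% and 54.9% of a PMN library. Across genes, the log2 levels of the sham livers correlated at r = 0.981 and those of the PMN livers at r = 0.970, while pairs from different groups lay between 0.907 and 0.915. Of 7234 genes with levels of 10 CPM and above, the sham livers lay over 4-fold apart for 12 and the PMN livers for 34. Among genes compared per length (TPM), the hepatocyte transcript Alb was the highest in every liver, and Xist was present in all 4 livers (978 to 1129 CPM) while no Y-linked gene of the list was in the table. This is the pattern of female livers, although the sex of the mice is not stated.

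Of 15649 genes tested with edgeR's quasi-likelihood test, 4771 were called at a Benjamini-Hochberg adjusted p under 0.05, which is 30.5% of them. Calls with a higher PMN level made up 2548 of the tested genes (16.3%) and those with a lower level 2223 (14.2%). The higher genes changed by more than the lower ones, with a median log2 fold change of 1.33 against -0.89. Among the higher genes 763 changed over 4-fold and 197 over 16-fold, and among the lower genes 275 and 79. For 110 of the higher genes both sham livers held 3 counts or fewer, and for 65 of the lower genes both PMN livers did, so that their fitted folds depend on the prior count. The 2 PMN livers lay on the same side of both sham livers for 69.3% of all tested genes. They did so for all 95 called genes that are named here, in part because the rule for naming the largest changes required it, so that this is no separate result. The median log2 fold change over all tested genes was 0.00199. With library totals in place of TMM scaling it moved by -0.26, and 1697 genes were then higher and 3723 lower (31.3% of the calls higher, against 53.4%), so that small changes depend on the scaling. Most medians of the gene lists below moved by about as much with it. With the metastasis livers in the same fit (the 6-liver fit), which adds their spread, 849 genes were higher and 423 lower. Without sham liver 1 there were 1286 higher and 914 lower genes, and without sham liver 2 1116 and 764. In every such fit with 1 liver left in a group, the spread comes from the pair of the other group alone, and the lone liver is assumed to vary like it. Counts of 5 or fewer genes against the main direction of a list often moved by over 1.5 times in these fits, and such counts are no more than a description of the 4 livers. A list with shares near 16.3% higher and 14.2% lower gives no result about that list. Of all tested genes 373 passed the filter on low counts through the PMN livers only and 391 through the sham livers only. Lists for which such genes are not mentioned held at most 1 of them for each group.

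**Figure D1:**
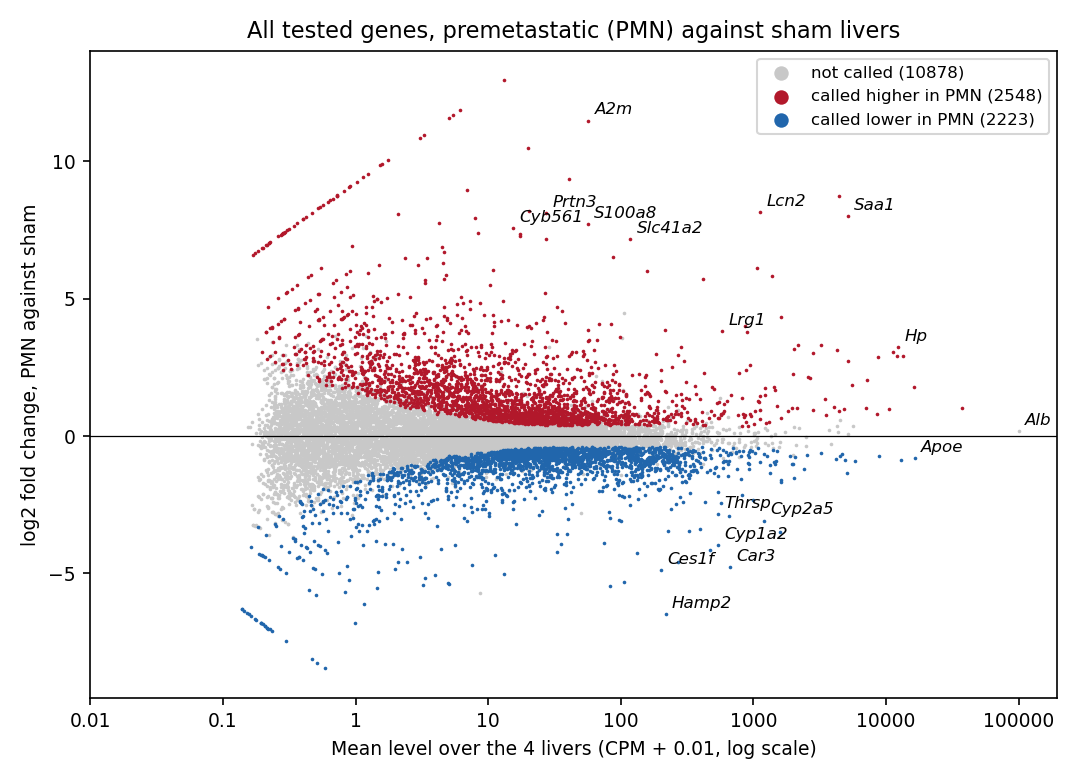
The log2 fold change of each tested gene, PMN against sham, is plotted against its mean level over the 4 livers (CPM plus 0.01, log scale). The 2548 red genes were called higher, the 2223 blue genes lower and the grey genes not called. The slanted lines of points at the edges are genes with no counts in 1 group, whose fitted fold changes depend on the prior count.

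Acute phase transcripts were mostly higher in PMN livers. Of 32 acute phase genes listed, all 32 were tested, 29 rose (against 16.3% of all tested genes) and 1 fell, with a median log2 fold change of 3.03 (0.00199 over all tested genes). A single gene of the list, A2m, passed the filter on low counts only through the PMN livers. The serum amyloid A genes Saa1 and Saa2 encode apolipoproteins that replace apolipoprotein A-I on high density lipoprotein during inflammation. Saa1 was at 17.9 and 63.2 CPM in sham and 7828 and 12843 CPM in PMN livers, and Saa2 at 7.63 and 33.2 CPM in sham and 6272 and 11260 CPM in PMN livers. For both genes the lower PMN liver lay over 100 times above the higher sham liver, and the sham livers themselves differed by 3 to 5 times. The log2 fold change of Saa1 was 7.99 (standard error 0.73, adjusted p = 0.00108), and it was 7.35 without sham liver 1 and 9.17 without sham liver 2. Saa2 changed by 8.74 (standard error 0.85, adjusted p = 0.00138), or by 8.04 and 10.17 without those livers. Saa1 and Saa2 are near-identical copies and only uniquely aligned reads were counted, so that the split between them is uncertain.

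Lcn2, which encodes the iron-siderophore binding protein lipocalin 2, was at 8.01 and 7.91 CPM in sham and 1560 and 2922 CPM in PMN livers (log2 fold change 8.14, standard error 0.38, adjusted p = 0.000204). Both hepatocytes and neutrophil granules contain this protein, and neutrophil granule genes rose in the same livers. A2m encodes the broad protease inhibitor alpha-2-macroglobulin. It was at 0.0763 and 0 CPM in sham and 121 and 106 CPM in PMN livers. With 3 counts in both sham livers together, the ratio of the summed levels was 3134 (exact 95% interval 1072 to 15199, counting error only; adjusted p = 0.000133). Lrg1, the leucine-rich glycoprotein that the study follows as a product of hepatocytes, was at 71.8 and 82.0 CPM in sham and 1047 and 1130 CPM in PMN livers. Its 2 livers of each group lay close together and the log2 fold change was 3.82 (standard error 0.14, adjusted p = 0.000133). Steap4, a metalloreductase of the plasma membrane, was at 106 and 99.6 CPM in sham and 1064 and 2202 CPM in PMN livers (log2 fold change 3.99, adjusted p = 0.001), and without PMN liver 2 its change was 3.37. The haptoglobin gene Hp, already abundant in the sham livers, was at 2354 and 2423 CPM in sham and 19958 and 24856 CPM in PMN livers (log2 fold change 3.23, adjusted p = 0.00023). The fibrinogen beta chain gene Fgb was at 2761 and 2887 CPM in sham and 21617 and 21148 CPM in PMN livers (log2 fold change 2.92, adjusted p = 0.000133).

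A hepcidin gene went the other way. Hamp2 was at 519 and 342 CPM in sham and 2.53 and 7.18 CPM in PMN livers, so that both PMN livers lay far below both sham livers (log2 fold change -6.48, standard error 0.54, adjusted p = 0.000877, and -7.41 without PMN liver 2). Its close copy Hamp, which encodes the hepcidin that blocks iron export and was added after its values were seen, was at 554 and 554 CPM in sham and 67.5 and 480 CPM in PMN livers. PMN liver 1 alone was low for Hamp and the gene was not called (adjusted p = 0.347), and its value without PMN liver 2 (log2 fold change -3.04) is that of this 1 liver. Reads that fit both copies were not counted.

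The promoters of these genes are shown because STAT3 and C/EBP factors are the textbook regulators of the acute phase genes. The 7 windows were picked because each holds a match, so that their matches are no sample of acute phase promoters. They are from RefSeq (GRCm38.p6, the assembly that mm10 denotes), run from 250 bases before to 50 bases after the start site and read 5′ to 3′ on the strand of the gene. Capitals mark matches, on either strand, to TTCNNNGAA for STAT and TTGCNNAA for C/EBP. In these windows no match of the one overlapped a match of the other. The first set holds a C/EBP match only, and lies at chr7:46742931-46743230 (minus strand, Saa1), chr7:46751583-46751882 (plus strand, Saa2) and chr2:32387690-32387989 (minus strand, Lcn2).
Saa1: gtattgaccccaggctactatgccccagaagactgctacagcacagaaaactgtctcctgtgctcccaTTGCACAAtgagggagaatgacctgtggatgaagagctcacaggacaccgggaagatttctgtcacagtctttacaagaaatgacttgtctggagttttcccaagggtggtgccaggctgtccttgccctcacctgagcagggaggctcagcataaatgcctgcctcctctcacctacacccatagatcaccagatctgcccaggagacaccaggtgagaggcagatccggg
Saa2: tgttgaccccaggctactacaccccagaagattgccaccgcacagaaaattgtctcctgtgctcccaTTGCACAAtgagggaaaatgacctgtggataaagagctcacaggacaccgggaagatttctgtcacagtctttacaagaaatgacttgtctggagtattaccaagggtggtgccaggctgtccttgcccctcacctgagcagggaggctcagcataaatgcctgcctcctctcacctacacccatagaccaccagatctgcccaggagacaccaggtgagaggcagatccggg
Lcn2: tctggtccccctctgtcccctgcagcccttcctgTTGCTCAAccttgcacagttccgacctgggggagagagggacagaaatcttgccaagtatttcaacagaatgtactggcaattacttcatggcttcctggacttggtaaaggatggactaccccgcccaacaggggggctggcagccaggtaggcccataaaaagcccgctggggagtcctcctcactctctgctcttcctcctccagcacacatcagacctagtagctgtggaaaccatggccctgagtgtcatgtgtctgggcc

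The second set holds both motifs, and lies at chr3:83049814-83050113 (minus strand, Fgb) and chr5:7960222-7960521 (plus strand, Steap4).
Fgb: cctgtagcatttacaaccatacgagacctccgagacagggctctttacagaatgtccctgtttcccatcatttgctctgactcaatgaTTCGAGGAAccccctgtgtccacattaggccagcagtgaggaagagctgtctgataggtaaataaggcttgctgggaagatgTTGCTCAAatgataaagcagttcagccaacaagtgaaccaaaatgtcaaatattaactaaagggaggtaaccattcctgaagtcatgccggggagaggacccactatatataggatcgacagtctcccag
Steap4: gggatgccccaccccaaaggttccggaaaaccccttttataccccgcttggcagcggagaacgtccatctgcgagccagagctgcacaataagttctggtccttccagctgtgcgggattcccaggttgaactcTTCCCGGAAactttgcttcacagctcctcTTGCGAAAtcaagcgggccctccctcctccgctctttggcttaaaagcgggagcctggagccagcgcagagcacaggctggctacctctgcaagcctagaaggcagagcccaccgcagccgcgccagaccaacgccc

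The third set holds a STAT match only. It contrasts Socs3, the feedback inhibitor of STAT3 signaling, at chr11:117969317-117969616 (minus strand), which rose, with Hamp2 at chr7:30924132-30924431 (minus strand), which fell.
Socs3: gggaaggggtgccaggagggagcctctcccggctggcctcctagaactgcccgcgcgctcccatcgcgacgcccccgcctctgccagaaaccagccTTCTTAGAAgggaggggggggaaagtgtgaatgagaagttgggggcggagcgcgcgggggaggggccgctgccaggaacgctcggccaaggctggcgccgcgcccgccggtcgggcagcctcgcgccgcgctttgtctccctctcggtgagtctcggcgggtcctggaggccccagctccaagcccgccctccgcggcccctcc
Hamp2: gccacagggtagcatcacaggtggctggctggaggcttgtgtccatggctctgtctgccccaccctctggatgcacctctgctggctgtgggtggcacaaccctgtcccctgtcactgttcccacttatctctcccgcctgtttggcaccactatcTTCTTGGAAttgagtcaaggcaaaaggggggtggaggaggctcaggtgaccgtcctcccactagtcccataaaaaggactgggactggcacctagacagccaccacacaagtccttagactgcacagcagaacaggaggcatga

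A C/EBP match was present in 12 of the 24 windows found for 21 of the 29 acute phase genes that rose, in 10.8% of all 32851 windows of the table, in 10.7% of the 2515 windows of the genes called higher and in 11.6% of the 2254 windows of the genes called lower. The STAT motif was present in 5 of these 24 windows (20.8%) and in 8.30% of all windows. Among 47 windows of cytochrome P450 genes of families 1 to 3, most of which fell, 13 held the C/EBP motif (27.7%) and 0 the STAT motif. These matches are descriptions of the letters and not of binding.

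**Figure D2:**
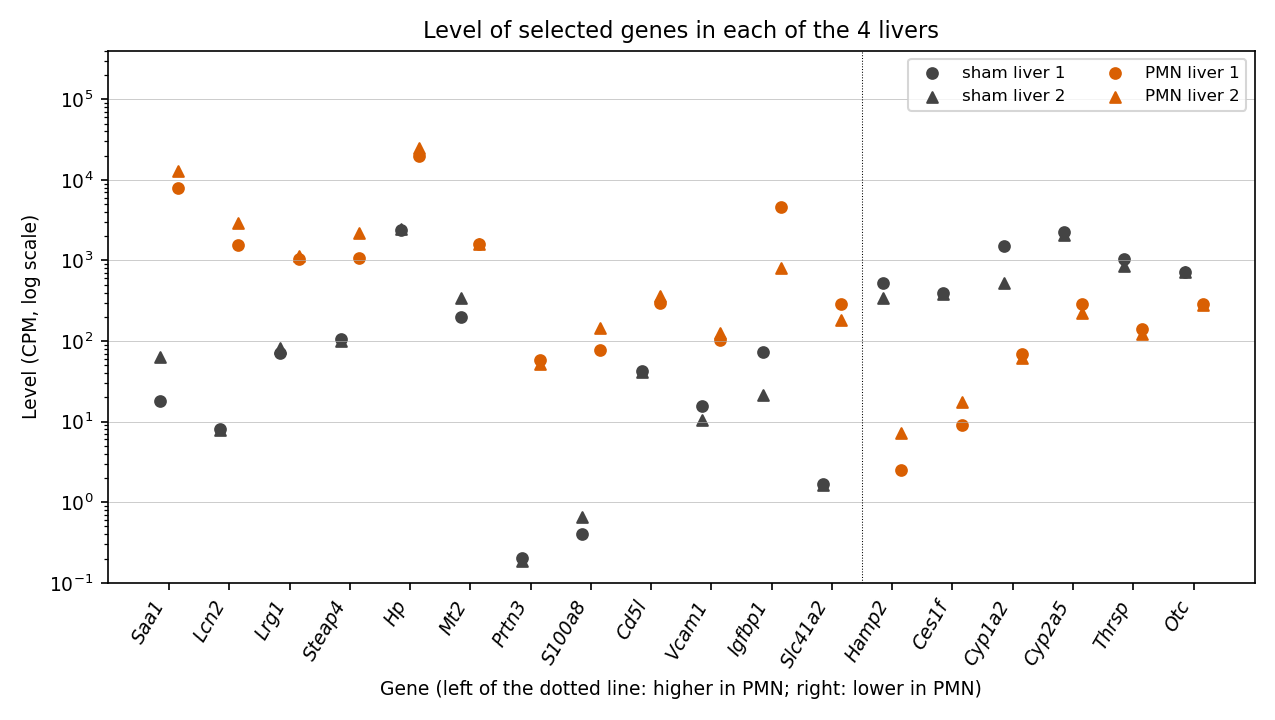
The level of 18 genes (CPM, log scale) is plotted for sham livers 1 and 2 (grey) and PMN livers 1 and 2 (orange), with 1 point a liver. For every gene plotted, both PMN livers lie on the same side of both sham livers; the livers of a group lie furthest apart for Igfbp1.

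Carriers that commonly decline in the acute phase were split. Of 19 such genes tested, 7 rose and 8 fell, with a median log2 fold change of 0.01 that turned negative with library totals, on TPM values and without PMN liver 1. Without sham liver 1 only 3 rose, and in the 6-liver fit 1 rose and 3 fell. Among those that rose was Trf (transferrin), at 23618 and 25962 CPM in sham and 52401 and 48409 CPM in PMN livers (log2 fold change 1.02, adjusted p = 0.00255). The largest fall was that of Serpina6, which encodes the corticosteroid-binding globulin, which went from 1235 and 1083 CPM in sham to 128 and 179 CPM in PMN livers (log2 fold change -2.91, adjusted p = 0.000477). Apoa2, an apolipoprotein of high density lipoprotein, was at 7537 and 7148 CPM in sham and 2697 and 3128 CPM in PMN livers (log2 fold change -1.33, adjusted p = 0.00132). Alb itself was not called, at 97278 and 90404 CPM in sham and 124836 and 87424 CPM in PMN livers (adjusted p = 0.503), and the PMN livers lay on either side of the sham livers. Against the sham pair, PMN liver 1 taken alone gave a log2 fold change of 0.41 (adjusted p = 0.0243), which rests on that 1 liver. Trf and Serpina6 lost their calls in the 6-liver fit (adjusted p = 0.0554 and 0.154). Complement genes rose in 26 of 31 tested genes and fell in 2 (C8g and Cd59a, the latter not called without sham liver 2 or in the 6-liver fit), with a median log2 fold change of 1.53. C8g, the gamma chain of C8, was at 309 and 306 CPM in sham and 66.6 and 90.8 CPM in PMN livers (log2 fold change -1.97, adjusted p = 0.00102), while C6, a further part of the membrane attack complex, was at 6.23 and 6.62 CPM in sham and 43.4 and 54.4 CPM in PMN livers (log2 fold change 2.93, adjusted p = 0.000345). Coagulation and fibrinolysis genes rose in 20 of 31 and fell in 1, with a median of 0.83, and 13 rose without sham liver 1 and 9 in the 6-liver fit.

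Cytokine signaling genes were followed by role. Il6 itself was not tested, because it was near the floor in every liver (0.0509 and 0 CPM in sham and 0.263 and 0.0641 CPM in PMN livers). Of 23 tested genes of IL-6 and STAT3 signaling, 11 rose and 3 fell (median log2 fold change 0.71, or 0.45 with library totals). Without sham liver 1 only 1 fell, and the 6-liver fit left 8 higher and 1 lower. Among receptors, Osmr, the oncostatin M receptor, was at 2.31 and 1.76 CPM in sham and 19.2 and 19.2 CPM in PMN livers (log2 fold change 3.24, adjusted p = 0.000458), whereas Lifr, the receptor for leukemia inhibitory factor, was lower at 324 and 339 CPM in sham and 150 and 174 CPM in PMN livers (log2 fold change -1.03, adjusted p = 0.00308). The transcription factor gene Stat3 was at 69.1 and 64.5 CPM in sham and 237 and 235 CPM in PMN livers (log2 fold change 1.82, adjusted p = 0.000458). Its target Socs3 was at 1.45 and 2.29 CPM in sham and 37.3 and 24.9 CPM in PMN livers (log2 fold change 4.05, adjusted p = 0.00061), and no PMN liver overlapped a sham liver for either gene. In the IL-1, TNF and NF-kB list 11 of 24 rose and 1 fell. The median of 0.73 was 1.14 without PMN liver 1, 0.49 with library totals and 0.33 with limma on log2(TPM + 1). Il1r1, the signaling receptor for interleukin 1, was at 82.8 and 45.4 CPM in sham and 275 and 400 CPM in PMN livers and Il1rn, the secreted antagonist of the same receptor, at 4.32 and 6.48 CPM in sham and 68.3 and 49.7 CPM in PMN livers (log2 fold changes 2.40 and 3.45, adjusted p = 0.00369 and 0.000595). Immediate early genes, which answer many signals within minutes, rose in 12 of 26 and fell in 1 (median 1.89), with Egr1 at 0.941 and 1.90 CPM in sham and 33.7 and 20.2 CPM in PMN livers (log2 fold change 4.24, adjusted p = 0.0012, and 4.84 without sham liver 2). The 6-liver fit left 7 of the IL-1 list and 3 of the immediate early genes higher, and Il1rn was not among its calls (adjusted p = 0.155).

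The shares of interferon genes called were near those of all tested genes. Of 41 tested genes 8 rose (19.5%, against 16.3% of all) and 7 fell (17.1%, against 14.2%), and the median of 0.04 turned negative with library totals in place of TMM scaling, on TPM values, with the length trend taken out and without PMN liver 2. Without sham liver 1 there were 5 that rose and 1 that fell, and without sham liver 2 there were 3 and 3. The 6-liver fit called 1 of the 41 higher and 0 lower. The CXCR3 ligands that interferon gamma induces were lower. Cxcl9 was at 17.1 and 12.4 CPM in sham and 3.69 and 3.33 CPM in PMN livers, Cxcl10 at 2.44 and 1.19 CPM in sham and 0.0263 and 0.353 CPM in PMN livers and Cxcl11 at 1.22 and 2.25 CPM in sham and 0.0527 and 0.0321 CPM in PMN livers. For each of them both PMN livers lay below both sham livers, with log2 fold changes of -2.07, -3.30 and -5.22 in this order (adjusted p = 0.00195, 0.0408 and 0.00459). Both PMN livers together held 3 counts of Cxcl11, so that sham over PMN was 40.5 (exact 95% interval 13.6 to 198). Cxcl11 passed the filter through the sham livers only, so that its call is not independent support. The call of Cxcl10 was lost without sham liver 1 or 2 (log2 fold changes -2.69 and -3.72, adjusted p = 0.167 and 0.062) and with the length trend taken out, and its change was -2.35 without PMN liver 1 and -5.95 without PMN liver 2. Cxcl9 and Cxcl10 lost their calls in the 6-liver fit (adjusted p = 0.174 and 0.0933).

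Neutrophil transcripts were higher in PMN livers. Of 25 mature neutrophil genes present, 21 were tested and 19 of these rose, with 0 lower. S100a8 and S100a9 form calprotectin, the most abundant cytosolic protein complex of neutrophils. S100a8 was at 0.407 and 0.655 CPM in sham and 76.5 and 147 CPM in PMN livers and S100a9 at 1.58 and 2.22 CPM in sham and 113 and 235 CPM in PMN livers (log2 fold changes 7.70 and 6.51, adjusted p = 0.000352 and 0.000458), and without PMN liver 2 the change of S100a9 was 5.89. The receptors Csf3r, for granulocyte colony stimulating factor, and Cxcr2, for neutrophil-attracting chemokines, were at 1.37 and 1.45 CPM in sham and 10.8 and 16.1 CPM in PMN livers and at 0.356 and 0.351 CPM in sham and 5.66 and 4.78 CPM in PMN livers. For each of these 4 genes both PMN livers lay above both sham livers by a wide margin, with log2 fold changes of 3.25 for Csf3r and 3.87 for Cxcr2 (adjusted p = 0.00091 and 0.00103). Transcripts of granule proteins that are made in immature neutrophils in the bone marrow were present as well. The serine protease gene Prtn3 was at 0.203 and 0.187 CPM in sham and 58.1 and 51.5 CPM in PMN livers (log2 fold change 8.11, standard error 0.21, adjusted p = 7.83e-05). Ctsg, the gene of cathepsin G, was not counted in sham livers and reached 4.37 and 7.89 CPM in PMN livers. The lower PMN liver lay at least 57.3-fold higher than the floor of 3 counts in a sham library (adjusted p = 0.00142). Mmp8, the collagenase of secondary granules, was at 0.0254 and 0.0468 CPM in sham and 7.56 and 9.42 CPM in PMN livers. The sham livers held 3 counts together, and the ratio of the summed levels was 230 (exact 95% interval 78.2 to 1117, adjusted p = 0.000339). Of 12 primary granule and promyelocyte genes 10 were tested, 9 rose and 1 fell, and of 18 secondary and tertiary granule genes 17 were tested, 14 rose and 0 fell. Of the tested genes 7 of the primary granule list, 8 of the secondary and tertiary list and 9 of the mature list passed the filter through the PMN livers alone, so that none of these 3 counts is independent support. With at least 10 counts in each liver 2 of 3, 5 of 8 and 9 of 9 rose. Prtn3, Ctsg and Mmp8 passed the filter through the PMN livers alone, so that their calls are not independent support either. The primary granule gene that fell, Mgst1, encodes a glutathione transferase that hepatocytes also express, and it was at 1467 and 1501 CPM in sham and 709 and 820 CPM in PMN livers (log2 fold change -0.96, adjusted p = 0.00356, or 0.172 in the 6-liver fit). PMN liver 2 was the higher of the PMN livers for S100a8, S100a9, Ctsg and Mmp8, and the lower for Prtn3 and Cxcr2.

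Macrophage transcripts were higher in both the monocyte and inflammatory macrophage list and the Kupffer cell list. Of 27 monocyte and inflammatory macrophage genes, 22 rose and 0 fell (median log2 fold change 2.45), with 3 that passed the filter through the PMN livers only and 11 that rose in the 6-liver fit, and of 18 Kupffer cell identity genes 13 rose and 0 fell (median 1.94). Unlike the neutrophil genes, all 18 Kupffer genes passed the filter through both groups. Clec4f, a lectin found on Kupffer cells alone among liver cells, was at 79.3 and 79.4 CPM in sham and 274 and 368 CPM in PMN livers (log2 fold change 2.02, adjusted p = 0.000899). Cd5l, a protein secreted by tissue macrophages, was at 42.0 and 41.1 CPM in sham and 297 and 359 CPM in PMN livers, and Marco, a scavenger receptor, at 1.02 and 1.90 CPM in sham and 24.7 and 15.1 CPM in PMN livers (log2 fold changes 2.98 and 3.77, adjusted p = 0.000232 and 0.00144). Both PMN livers lay above both sham livers for all 3 genes. Fn1, which encodes fibronectin and is expressed by hepatocytes as well as macrophages, was at 940 and 968 CPM in sham and 4589 and 3815 CPM in PMN livers (log2 fold change 2.14, adjusted p = 0.000458). In the list of immune suppression and checkpoint genes 18 of 26 rose and 1 fell, with 4 that passed the filter through the PMN livers only. Cd14, the coreceptor for lipopolysaccharide, was at 2.59 and 2.74 CPM in sham and 48.6 and 50.3 CPM in PMN livers (log2 fold change 4.21, adjusted p = 0.000133). Among chemokines 8 of 17 tested rose and 5 fell (3 without sham liver 1 and 3 without sham liver 2), against 5 and 2 in the 6-liver fit. Of these 17, 2 passed the filter through the PMN livers only and 1 through the sham livers only, and with at least 10 counts in each liver 6 of 10 rose and 3 fell. Ccl6, a ligand made by myeloid cells, was at 3.00 and 5.29 CPM in sham and 79.2 and 64.3 CPM in PMN livers (log2 fold change 4.11, adjusted p = 0.000505), whereas Cxcl12, the ligand of CXCR4, was lower at 331 and 366 CPM in sham and 128 and 155 CPM in PMN livers (log2 fold change -1.30, adjusted p = 0.00207).

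Lymphocyte transcripts were low in both groups. Of 27 T and NK cell genes present, 19 were tested, and edgeR called 0 of them in either direction. At an unadjusted p under 0.05 there were 0, and DESeq2 called 0. The median of -0.20 was 0.10 without PMN liver 1. Zap70, a kinase of the T cell receptor pathway, was at 6.59 and 11.9 CPM in sham and 3.77 and 8.56 CPM in PMN livers (adjusted p = 0.352), with the groups overlapping. PMN liver 1 taken alone gave a log2 fold change of -1.30 (adjusted p = 0.0347), which rests on that 1 liver. The summed level of the list was 20.3 and 25.7 CPM in the sham livers and 16.1 and 23.9 CPM in the PMN livers, and 16 of the 19 genes had a mean under 1 CPM, where small changes could not be detected. Of 14 tested B and plasma cell genes only Xbp1 was called, a gene that hepatocytes also use for secretion, at 120 and 115 CPM in sham and 149 and 206 CPM in PMN livers (log2 fold change 0.60, adjusted p = 0.0422). That call was lost without PMN liver 2, sham liver 1 or sham liver 2 (adjusted p = 0.0663, 0.15 and 0.2), in the 6-liver fit (0.366), with library totals in place of TMM scaling and on TPM values. Other settings called B cell list genes lower, 2 without PMN liver 2, 1 with library totals and 3 on TPM values. Of 14 tested erythroid genes 0 rose (against 16.3% of all) and 2 fell (14.3%, against 14.2% of all). The share that fell is thus about that of all tested genes. In this list 1 gene passed the filter through the PMN livers only and 1 through the sham livers only. Klf1 and Car1 are named because they were the only calls. The call of Klf1 was lost without any 1 of the livers (adjusted p = 0.0857 to 0.207) and that of Car1 with DESeq2. Both were lost in the 6-liver fit (adjusted p = 0.127 and 0.0954), and the log2 fold change of Car1 ran from -3.98 without PMN liver 1 to -11.26 without PMN liver 2.

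Endothelial genes rose in 21 of 29 tested genes and fell in 0, with a median log2 fold change of 1.37, and 9 rose in the 6-liver fit. Vcam1, an adhesion molecule for leukocytes that endothelium and Kupffer cells carry, was at 15.6 and 10.4 CPM in sham and 102 and 125 CPM in PMN livers (log2 fold change 3.12, adjusted p = 0.000584). Lyve1, a hyaluronan receptor of sinusoidal and lymphatic endothelium, was at 1.75 and 0.983 CPM in sham and 9.64 and 8.78 CPM in PMN livers (log2 fold change 2.75, adjusted p = 0.00245). Thbd, the gene of thrombomodulin, was at 0.559 and 1.10 CPM in sham and 20.7 and 14.5 CPM in PMN livers (log2 fold change 4.39, adjusted p = 0.000832). The PMN livers were unequal for Vwf, the gene of von Willebrand factor, at 2.26 and 2.86 CPM in sham and 66.1 and 12.5 CPM in PMN livers (log2 fold change 3.94, adjusted p = 0.0115, or 0.0557 with limma on log2(TPM + 1)), and without PMN liver 1 the change was 2.29, without PMN liver 2 4.68. The 6-liver fit gave no call for Vwf and Lyve1 (adjusted p = 0.0641 and 0.114). Stellate cell and fibroblast genes were mostly not called, with 6 of 23 higher (2 without sham liver 1), 2 lower (0 without either sham liver) and a median of 0.57. Hgf, the hepatocyte growth factor that stellate cells secrete, was at 4.55 and 4.26 CPM in sham and 24.8 and 27.2 CPM in PMN livers and Gas6, a ligand of TAM receptors, at 48.5 and 34.1 CPM in sham and 133 and 174 CPM in PMN livers (log2 fold changes 2.56 and 1.89, adjusted p = 0.000419 and 0.00228). In the matrix list 12 of 35 rose and 1 fell, with 2 that passed the filter through the PMN livers only. The 6-liver fit left 2 stellate and 7 matrix genes higher and 0 of either lower. Because the levels of many Kupffer, myeloid and endothelial transcripts rose together in the same livers, the part of each cell type in the genes they share was not tested.

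**Figure D3:**
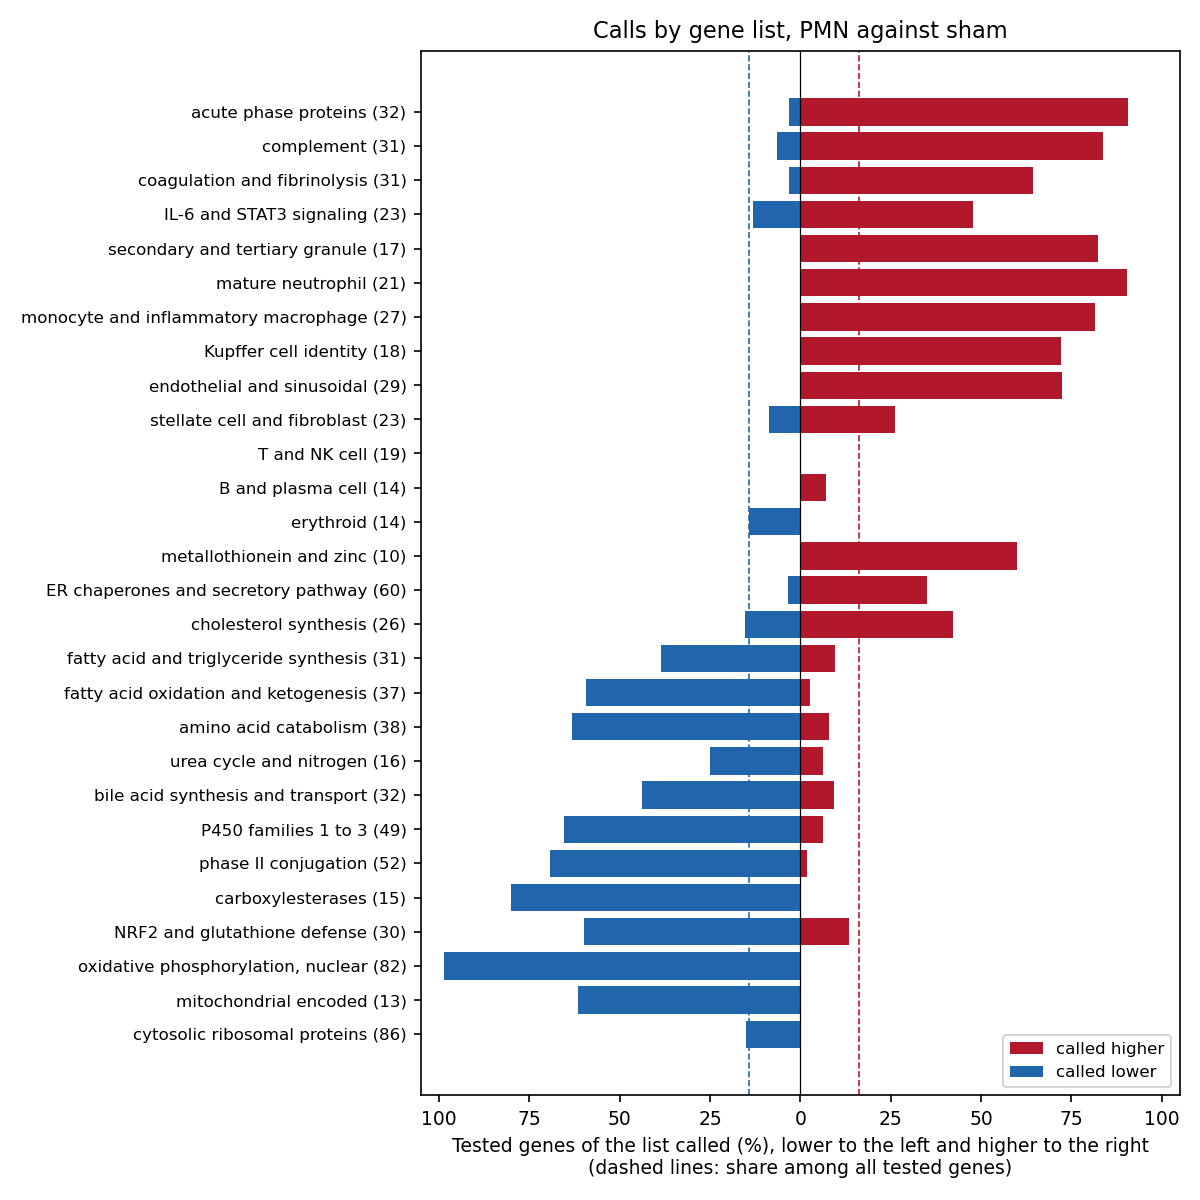
For 28 gene lists, the share of tested genes called higher (red, to the right) and lower (blue, to the left) in PMN livers is given in percent, with the number tested in brackets. The dashed lines mark the share among all tested genes, 16.3% higher and 14.2% lower. The acute phase and mature neutrophil lists lie furthest to the right and the nuclear genes of oxidative phosphorylation furthest to the left.

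Transcripts of drug and steroid metabolism were mostly lower. Cytochrome P450 genes of families 1 to 3 oxidize drugs, steroids and other lipophilic compounds, and 32 of the 49 tested fell (against 14.2% of all tested genes) while 3 rose, with a median log2 fold change of -1.10. Cyp1a2, which metabolizes caffeine and aromatic amines, was at 1514 and 520 CPM in sham and 69.6 and 61.3 CPM in PMN livers (log2 fold change -3.96, adjusted p = 0.00291). The sham livers differed by about 3 times, and without sham liver 1 the change was -2.99. Cyp2a5, the coumarin hydroxylase of the mouse, was at 2230 and 2056 CPM in sham and 287 and 221 CPM in PMN livers (log2 fold change -3.08, adjusted p = 0.000321). The highest of these genes per length (TPM) in the sham livers, Cyp2e1, which oxidizes ethanol and acetaminophen, fell less, to 4013 and 4088 CPM from 7933 and 7416 CPM (log2 fold change -0.92, adjusted p = 0.00285, or 0.0609 in the 6-liver fit). Cyp3a13 went the other way at 84.6 and 72.5 CPM in sham and 241 and 235 CPM in PMN livers (log2 fold change 1.60, adjusted p = 0.000874). Carboxylesterases hydrolyze esters and lipids, and 12 of 15 fell with 0 higher, at a median of -2.13. Of the 15, 2 passed the filter through the sham livers only, and with at least 10 counts in each liver 10 of 13 fell, at a median of -1.46. Ces1f was at 395 and 382 CPM in sham and 9.04 and 17.3 CPM in PMN livers and Ces2a at 414 and 408 CPM in sham and 63.6 and 68.1 CPM in PMN livers (log2 fold changes -4.89 and -2.64, adjusted p = 0.000458 and 0.00022). Phase II enzymes, which attach sulfate, glucuronate or glutathione, fell in 36 of 52 and rose in 1, at a median of -1.26. Here 5 passed the filter through the sham livers only and 1 through the PMN livers only, and with at least 10 counts in each liver 33 of 46 fell. The sulfotransferase gene Sult2a8 was at 504 and 537 CPM in sham and 15.9 and 27.5 CPM in PMN livers and the glutathione transferase gene Gsta2 at 80.2 and 45.0 CPM in sham and 3.42 and 3.24 CPM in PMN livers (log2 fold changes -4.58 and -4.23, adjusted p = 0.000419 and 0.000572). For Cyp1a2, Cyp2a5, Cyp2e1, Ces1f, Ces2a, Sult2a8 and Gsta2, both PMN livers lay below both sham livers. In the 6-liver fit 13 P450 genes of families 1 to 3 fell and 1 rose, 6 carboxylesterases fell, and 18 phase II genes fell and 0 rose. A single gene of these P450 families rose without sham liver 1 and also without sham liver 2, and 2 phase II genes rose without PMN liver 2 or sham liver 1. These families hold close copies, so that values of single members carry the uncertainty of unique alignment.

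Genes that differ between male and female mouse livers were read as 2 lists, since the drug enzymes include many of them. By Xist all 4 livers have the female pattern, so that the male-biased genes were read in female livers. Of 24 tested female-biased genes 16 fell and 0 rose (2 without PMN liver 2, and 1 without sham liver 2, with DESeq2 or with the replicate block), and of 16 male-biased genes 8 fell (5 without sham liver 1) and 5 rose. Hsd3b5, a steroid dehydrogenase of male liver, was at 33.1 and 52.0 CPM in sham and 5.87 and 5.64 CPM in PMN livers (log2 fold change -2.88, adjusted p = 0.000877, or 0.121 in the 6-liver fit), and Egfr, the receptor for epidermal growth factor and of the same list, was at 45.6 and 63.1 CPM in sham and 630 and 398 CPM in PMN livers (log2 fold change 3.24, adjusted p = 0.000904). Genes of the zones of the lobule were counted as well. Pericentral genes fell in 12 of 25 and rose in 1 (median log2 fold change -0.61), with 7 that fell without sham liver 2. Periportal genes fell in 8 of 26 and rose in 2, with 3 and 5 that fell without sham livers 1 and 2, 9 that rose without PMN liver 2, and a median of -0.08 that turned positive without PMN liver 2 and with the length trend taken out. In the 6-liver fit 5 female-biased, 3 male-biased, 4 pericentral and 2 periportal genes fell. The difference between these pairs of lists was not tested.

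**Figure D4:**
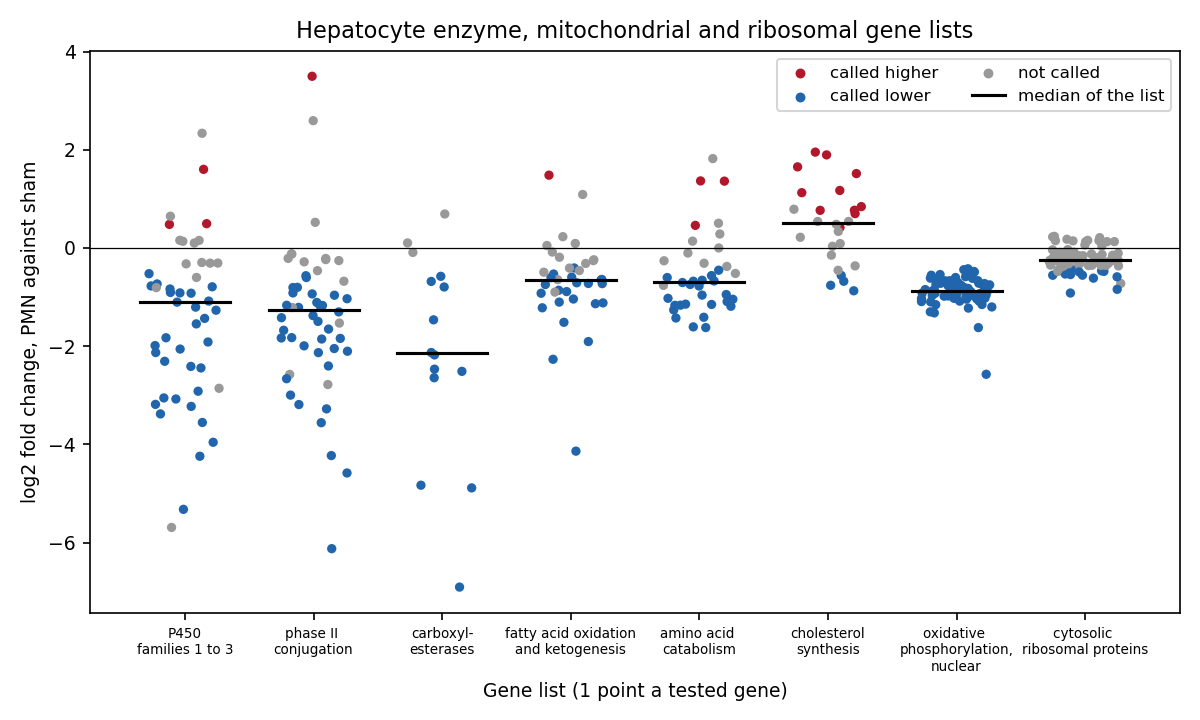
Each point is the log2 fold change of 1 tested gene, PMN against sham, in 8 lists, red where called higher, blue where called lower and grey where not called, and the black bar is the median of the list. The P450, phase II and carboxylesterase genes spread widely below 0, whereas the genes of oxidative phosphorylation lie in a narrow band around -0.87.

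Lipid genes were counted by pathway. Fatty acid and triglyceride synthesis fell in 12 of 31 tested genes and rose in 3 (median log2 fold change -0.43). The number that rose was 5 without either PMN liver and 1 without sham liver 2, and the median was -0.28 without sham liver 1 and -0.70 with library totals. Thrsp, a hepatocyte regulator of lipogenesis, was at 1034 and 860 CPM in sham and 141 and 121 CPM in PMN livers and Scd1, the stearoyl-CoA desaturase, at 2681 and 2199 CPM in sham and 718 and 890 CPM in PMN livers (log2 fold changes -2.85 and -1.60, adjusted p = 0.000321 and 0.00156). Srebf1, the transcription factor of this pathway, was at 115 and 108 CPM in sham and 32.3 and 41.0 CPM in PMN livers (log2 fold change -1.61, adjusted p = 0.00134). In cholesterol synthesis 11 of 26 were higher and 4 lower (median 0.51), a lean that shrank to a median of 0.22 without PMN liver 1 and to 0.23 with library totals (8 higher and 5 lower), while limma on log2(TPM + 1) gave 7 and 5. The epoxidase gene Sqle was at 23.3 and 41.7 CPM in sham and 152 and 99.3 CPM in PMN livers (log2 fold change 1.95, adjusted p = 0.00708). In the 6-liver fit 1 gene of this list was called, and without sham liver 1 there were 5 that rose and 2 that fell. Without PMN liver 2 there were 2 that fell, and without sham liver 2 there was 1. Fatty acid oxidation and ketogenesis fell in 22 of 37 and rose in 1 (median -0.65), with 11 that fell without sham liver 1 and 11 without sham liver 2. Ehhadh, a peroxisomal enzyme of beta-oxidation, was at 407 and 354 CPM in sham and 71.0 and 132 CPM in PMN livers and Fabp1, the fatty acid binding protein of liver, at 2626 and 3377 CPM in sham and 866 and 1235 CPM in PMN livers (log2 fold changes -1.91 and -1.51, adjusted p = 0.00527 and 0.0042). Bile acid genes fell in 14 of 32 and rose in 3 (median -0.57), with 7 and 8 that fell and 1 and 1 that rose without sham livers 1 and 2, and 5 that rose without PMN liver 2. Slco1a4, an uptake transporter, was at 245 and 274 CPM in sham and 85.8 and 75.1 CPM in PMN livers (log2 fold change -1.69, adjusted p = 0.000798). In the 6-liver fit 4 synthesis, 5 oxidation and 2 bile acid genes fell. It gave no call for Srebf1, Fabp1 and Slco1a4 (adjusted p = 0.0553, 0.168 and 0.131).

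Amino acid catabolism fell in 24 of 38 tested genes and rose in 3, with a median log2 fold change of -0.69, and 15 fell without sham liver 2. The number that rose was 5 without PMN liver 2 and 1 without PMN liver 1 or sham liver 2. Prodh, the first enzyme of proline breakdown, was at 191 and 211 CPM in sham and 61.5 and 70.3 CPM in PMN livers and Afmid, of the kynurenine pathway, at 181 and 190 CPM in sham and 48.4 and 72.0 CPM in PMN livers (log2 fold changes -1.61 and -1.62, adjusted p = 0.000899 and 0.00286). Of 16 urea cycle and nitrogen genes 4 fell and 1 rose, against 5 that rose without PMN liver 2 and 9 that fell with library totals. The shares of this list were 25% lower and 6.25% higher, against 14.2% and 16.3% of all tested genes. Otc, the ornithine transcarbamylase, was at 714 and 727 CPM in sham and 291 and 282 CPM in PMN livers (log2 fold change -1.33, adjusted p = 0.000957), a fall by more than the spread between livers of a group. Cps1, the entry enzyme of the same cycle, was not called at 3700 and 3465 CPM in sham and 6282 and 4426 CPM in PMN livers (adjusted p = 0.0528). PMN liver 1 taken alone, the higher of the pair, gave a log2 fold change of 0.81 (adjusted p = 0.00155), which rests on that 1 liver. One-carbon genes fell in 12 of 24 (7 and 5 without sham livers 1 and 2) and rose in 5, with the serine hydroxymethyltransferase gene Shmt1 at 196 and 189 CPM in sham and 70.0 and 74.3 CPM in PMN livers and the methionine adenosyltransferase gene Mat1a at 3146 and 3008 CPM in sham and 6455 and 5218 CPM in PMN livers (log2 fold changes -1.41 and 0.92, adjusted p = 0.00091 and 0.00557). In the 6-liver fit 9 amino acid, 2 urea cycle and 2 one-carbon genes fell, and it gave no call for Prodh and Mat1a (adjusted p = 0.0773 and 0.186). Of the glucose metabolism list 25% were higher and 22.2% lower, against 16.3% and 14.2% of all tested genes. Glucose metabolism was split, with 9 of 36 higher and 8 lower (4 and 1 without sham liver 1, 3 lower without sham liver 2, and 3 and 0 in the 6-liver fit), and the glycolytic gene Ldha, for lactate dehydrogenase A, was at 435 and 477 CPM in sham and 1095 and 1287 CPM in PMN livers (log2 fold change 1.39, adjusted p = 0.00141).

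The mitochondrial respiratory chain fell as a nearly complete set. Of 82 nuclear genes of oxidative phosphorylation, all tested, 81 fell and 0 rose, with a median log2 fold change of -0.87. Most of their changes were small and alike. Ndufa5, a subunit of complex I, was at 90.8 and 98.8 CPM in sham and 38.4 and 37.4 CPM in PMN livers (log2 fold change -1.32, standard error 0.12, adjusted p = 0.00121), and Atp5b, the beta subunit of the ATP synthase, at 1181 and 1161 CPM in sham and 838 and 754 CPM in PMN livers (log2 fold change -0.56, adjusted p = 0.0164). The call of Atp5b was lost without sham liver 1 or sham liver 2 (adjusted p = 0.117 and 0.113) and in the 6-liver fit (0.14). Without sham liver 1 there were 53 of the 82 genes that fell, without sham liver 2 there were 46, without either PMN liver 80, and in the 6-liver fit 32. Of 13 genes encoded by mitochondrial DNA 8 fell and 0 rose (median -0.80), and 4 fell without either sham liver and 1 in the 6-liver fit. COX2, a subunit of cytochrome oxidase from that genome, was at 230 and 212 CPM in sham and 86.5 and 101.2 CPM in PMN livers (log2 fold change -1.23, adjusted p = 0.00196, or 0.0724 in the 6-liver fit). Mitochondrial transcripts made up 5.85% and 5.58% of a sham library and 3.13% and 2.63% of a PMN library.

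Most of the genes of oxidative phosphorylation are short, and short genes as a whole were lower in the PMN libraries. When the 13532 genes with 10 counts or more in all 4 livers were divided into 10 equal bins by the length that the count and TPM tables imply, the median log2 fold change went from -0.46 in the shortest bin to 0.24 in the longest. In the shortest bin 5.54% were called higher and 32.1% lower, and in the longest 25.4% and 5.91%. Of the 82 genes, 50 lay in the shortest bin. Of 2638 other genes in the 2 shortest bins, 26.5% fell (median -0.34). With the length trend of each liver taken out as an offset in the same fit, a setting chosen after the data were seen, 60 of the 82 genes still fell, 0 rose and the median was -0.56. Ribosomal protein genes, which are as short, fell in 13 of 86 (15.1%, about the 14.2% of all tested genes) and rose in 0 (median -0.25), and with this offset 1 fell and 4 rose (median 0.04), while with library totals in place of TMM scaling 59 fell. Whether fragment length, RNA quality or the tumor sets the trend with length was not tested. The ribosomal list also moved without 1 liver, with 27 lower without PMN liver 1, 2 without sham liver 1, 1 without sham liver 2 and 0 in the 6-liver fit. The same offset left 29 of 32 acute phase genes higher and 31 of 49 P450 genes lower.

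**Figure D5:**
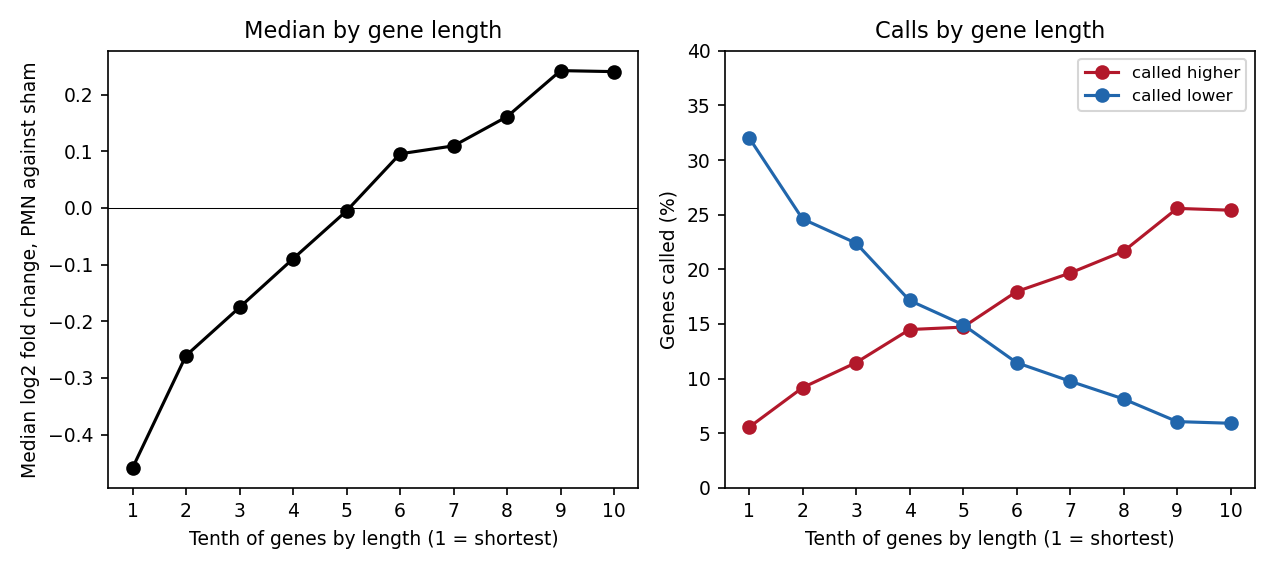
Genes with at least 10 counts in each of the 4 livers were divided into 10 equal bins by length, 1 being the shortest. The left panel gives the median log2 fold change of each bin, from -0.46 to 0.24, and the right panel the percent of its genes called higher (red) or lower (blue).

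Metal handling and secretion rose in part. In the metallothionein and zinc list 6 of 10 rose (3 without either sham liver or with library totals) and 0 fell (median log2 fold change 0.75). The metal-binding Mt2 was at 197 and 343 CPM in sham and 1604 and 1605 CPM in PMN livers and the zinc importer Slc39a14 at 170 and 150 CPM in sham and 571 and 570 CPM in PMN livers (log2 fold changes 2.57 and 1.84, adjusted p = 0.00151 and 0.000493). Slc41a2, a transporter of magnesium, was at 1.68 and 1.62 CPM in sham and 284 and 185 CPM in PMN livers (log2 fold change 7.15, standard error 0.28, adjusted p = 0.000133), among the largest rises of a gene that both sham livers expressed above the floor. In the iron and heme list 12 of 35 rose and 7 fell (3 without sham liver 2, and 11 with library totals). The shares of this list were 34.3% higher and 20% lower, against 16.3% and 14.2% of all tested genes. Hmox1, the inducible heme oxygenase, was at 12.3 and 12.1 CPM in sham and 74.5 and 58.4 CPM in PMN livers (log2 fold change 2.44, adjusted p = 0.000458), while Alad, the second enzyme of heme synthesis, was at 272 and 283 CPM in sham and 85.6 and 84.4 CPM in PMN livers (log2 fold change -1.71, adjusted p = 0.000493, or 0.0674 in the 6-liver fit) and Ftl1, the ferritin light chain, at 3432 and 3239 CPM in sham and 1618 and 1279 CPM in PMN livers (log2 fold change -1.20, adjusted p = 0.00282). Antioxidant genes of the NRF2 and glutathione list fell in 18 of 30 (11 and 10 without sham livers 1 and 2) and rose in 4, with catalase (Cat) at 2598 and 2330 CPM in sham and 722 and 825 CPM in PMN livers (log2 fold change -1.67, adjusted p = 0.00075). Genes of endoplasmic reticulum chaperones and secretion rose in 21 of 60 and fell in 2 (median 0.30), but with library totals in place of TMM scaling 8 rose and 10 fell, and without sham livers 1 and 2 there were 7 and 4 that rose. In the 6-liver fit 3 genes of the zinc list and 1 of the secretion list rose, and 2 of the iron list and 6 of the NRF2 list fell. The stress sensor gene Ern1 was at 10.98 and 8.43 CPM in sham and 31.5 and 24.4 CPM in PMN livers (log2 fold change 1.53, adjusted p = 0.00348).

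Genes of regulators, cell division and the clock were counted next. Of 42 hepatocyte transcription factor genes 5 rose (11.9%, against 16.3% of all) and 8 fell (19.0%, against 14.2%), with 9 and 16 without PMN liver 2 and 0 and 3 without sham liver 2. Cebpa, which drives mature hepatocyte expression, was at 174 and 280 CPM in sham and 59.7 and 80.5 CPM in PMN livers (log2 fold change -1.69, adjusted p = 0.00565). Igfbp1, an insulin-like growth factor binding protein that fasting and stress induce, was at 74.1 and 21.3 CPM in sham and 4627 and 798 CPM in PMN livers. PMN liver 1 was almost 6 times above PMN liver 2, yet both lay above both sham livers (log2 fold change 5.83, standard error 1.02, adjusted p = 0.00863), and the change ran from 4.07 without PMN liver 1 to 6.99 without sham liver 1. Igfals, the acid-labile subunit that keeps IGF1 in plasma, was lower at 124 and 133 CPM in sham and 43.4 and 56.0 CPM in PMN livers (log2 fold change -1.38, adjusted p = 0.00229). Of 41 cell cycle genes 5 rose (12.2%, against 16.3% of all) and 2 fell (4.88%, against 14.2%), with counts that moved (1 and 1 without sham liver 2, and 8 that rose without PMN liver 2). Top2a, a topoisomerase of dividing cells, was at 2.49 and 1.99 CPM in sham and 8.48 and 10.96 CPM in PMN livers and Tk1, a thymidine kinase, at 62.6 and 63.2 CPM in sham and 13.9 and 15.2 CPM in PMN livers (log2 fold changes 2.12 and -2.11, adjusted p = 0.00261 and 0.000419). Per3, a clock gene, was at 53.8 and 64.0 CPM in sham and 19.9 and 17.0 CPM in PMN livers (log2 fold change -1.67, adjusted p = 0.00115), in a clock list with 5 of 20 higher and 5 lower (1 and 3 without sham liver 2). Of the clock list 25% were higher and 25% lower, against 16.3% and 14.2% of all tested genes. Per3 lost its call in the 6-liver fit (adjusted p = 0.201). That fit left 0 of the transcription factors higher and 3 lower, 2 and 1 of the cell cycle genes, and 0 and 1 of the clock genes. The hour of collection is not given in the sources used here, and its part in the clock genes was not tested.

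Among abundant genes with the smallest changes were Selenop, the plasma carrier of selenium, at 5125 and 4968 CPM in sham and 5486 and 5108 CPM in PMN livers, and Apoh, beta-2-glycoprotein I, at 2491 and 2621 CPM in sham and 2510 and 2435 CPM in PMN livers. Their 95% intervals on the log2 scale ran from -0.20 to 0.34 and from -0.32 to 0.22, so that a change of these 2 abundant transcripts by 1.5 times, relative to the TMM scaling, lay outside the intervals. Both genes were picked for an estimate near 0, so that the intervals do not keep their stated coverage and exclude no such change.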

How the data were processed

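RNA was measured by poly(A)-selected sequencing of whole liver from 2 sham and 2 PMN mice, which the series describes as biological replicates. The authors deposited raw counts per gene and a matched table of TPM values. The submitters' processing notes name HISAT2 2.1.0, Subread 2.0.6 and mm10. Only uniquely aligned reads were counted, so that reads of near-identical copies are lost, and the library kit does not mark strand, so that reads of genes overlapping on opposite strands cannot be told apart. Counts were tested with edgeR 4.0.16 (R 4.3.3) by its quasi-likelihood test with TMM scaling, on 4 livers, after filterByExpr with a count minimum of 10, with Benjamini-Hochberg adjustment over 15649 genes at 0.05. The TPM values were used for limma 3.58.1 on log2(TPM + 1) and log2(TPM + 0.1) and for comparing levels between genes. A 2 against 2 permutation test cannot go below p = 0.333, so none was used.

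Levels are CPM on TMM-scaled library sizes, and the count of 0 was taken to allow 3 counts. A gene with no counts in a group has a lower bound in place of a fold, the lower PMN liver over the floor of a library, and one with 1 to 3 counts in a group a ratio with an exact binomial interval. The alternatives were DESeq2 1.42.0, RLE size factors, TMM without the 100 most abundant genes, library totals, other filters, a fold limit of 2, all 6 livers in the fit, a replicate block, TPM values, a length offset and leaving out each liver. The genes named were, by rule, the 12 called genes per direction with the largest change among those at 20 CPM or more in the higher group without overlap of the livers, in each list up to 3 called members per direction with the largest change at 1 CPM or more and the member of highest level, genes that the study follows, the 6 most abundant genes and the 5 with the smallest change among the 200 most abundant. Hamp and Klf1 lay outside it. The members, gene lists and comparison were chosen with earlier results of these data known. Of 331 genes that the rule gave, 258 had a RefSeq promoter window.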

Additional observations from a re-analysis of the deposited data

How the results depend on the processing

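The number of called genes was sensitive to the scaling and to the sham livers. With library totals in place of TMM scaling 1697 genes were higher and 3723 lower, with limma on log2(TPM + 1) 1587 were higher and 3178 lower, and on log2(TPM + 0.1) 1627 and 3187. Against a fold limit of 2, 556 were higher and 213 lower, and with all 6 livers in the fit 849 and 423. Leaving out 1 liver gave 1116 to 2674 higher and 764 to 2444 lower genes, the lowest without sham liver 2. DESeq2, RLE size factors, the other filters and the length offset, which was added after the data were seen, kept both counts within 1.5 times. The cause of these shifts was not tested. Of 95 called genes named in the text, none changed direction and 69 kept their call under every alternative that held a value for them, while 26 lost it with all 6 livers in the fit. The fold limit was read as counts only. The filter of at least 10 counts in each liver held values for 86 of the 95. The uncalled genes that changed sign were Alb (-0.10 with library totals, -0.035 on either TPM scale and -0.10 without PMN liver 1, against 0.41 without PMN liver 2), Selenop (-0.20 with library totals and -0.12 on either TPM scale) and Apoh (0.20 with the length offset). The replicate numbers did not pair the livers, as the deviations of same-numbered livers correlated at -0.03, and a fit with the replicate block called 2386 genes higher and 2062 lower. Depth limited the comparison below about 1 CPM, where 16 of the 19 tested T and NK cell genes lay.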

Other observations

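Lysosomal genes rose in 17 of 30 tested genes and fell in 0, with a median log2 fold change of 0.52, and 5 and 7 rose without sham livers 1 and 2, 8 with library totals and 5 in the 6-liver fit. Ctss, cathepsin S of antigen-presenting cells, was at 15.0 and 13.6 CPM in sham and 93.6 and 100.6 CPM in PMN livers, and Lgmn, the protease legumain, at 29.0 and 30.3 CPM in sham and 156 and 152 CPM in PMN livers (log2 fold changes 2.76 and 2.38, adjusted p = 0.000232 and 0.000278 by edgeR's quasi-likelihood test). MHC class II genes rose in 5 of 9 (3 without sham liver 2 and 1 in the 6-liver fit) and fell in 0, and Cd74, the invariant chain, was at 23.3 and 18.4 CPM in sham and 55.9 and 46.7 CPM in PMN livers (log2 fold change 1.30, adjusted p = 0.00342 by edgeR, or 0.0534 in the 6-liver fit). Platelet and megakaryocyte genes rose in 7 of 11 and fell in 0. Ppbp, the platelet basic protein, was at 0.407 and 0.702 CPM in sham and 5.98 and 13.5 CPM in PMN livers (log2 fold change 4.11, adjusted p = 0.00282 by edgeR, and 3.41 without PMN liver 2), so that both PMN livers lay above both sham livers. Proteasome genes, which are short as a group, fell in 14 of 47 and rose in 0 (3 and 2 fell without sham livers 1 and 2, 1 in the 6-liver fit, and 26 with library totals).

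In the list of amino acid starvation and PERK targets 8 of 21 rose and 1 fell, and 4 rose without PMN liver 1, sham liver 1 or sham liver 2 and 1 in the 6-liver fit. Of the 21, 2 passed the filter through the PMN livers only, Asns among them, and 1 through the sham livers only. Asns, the asparagine synthetase, was at 0 and 0.187 CPM in sham and 1.34 and 1.09 CPM in PMN livers (log2 fold change 3.62, adjusted p = 0.0402 by edgeR). Its call was lost without PMN liver 1 or sham liver 1 (adjusted p = 0.0557 and 0.079) and in the 6-liver fit (0.0615), and its change ran from 2.68 without sham liver 1 to 8.47 without sham liver 2. Markers of other organs were counted as well. Of 17 intestinal epithelium genes 10 were in the table, with a summed level of 271 and 321 CPM in sham and 290 and 282 CPM in PMN livers. Of the 4 tested, 0 were called by edgeR (2 at an unadjusted p under 0.05) and 2 were lower with DESeq2, and the sum lay mostly in 2 keratins that hepatocytes also express. Of 14 exocrine pancreas genes 4 were in the table, with a summed level of 18.4 and 27.3 CPM in sham livers and 6.95 and 7.501 CPM in PMN livers, and of 13 muscle genes 3 were. Of the 2 pancreas genes tested 1 was called higher and 1 lower. Of 4 tested adipose genes 1 was called higher and 1 lower. The summed adipose list went from 1425 and 1162 CPM to 47.2 and 100.6 CPM. Nearly all of it was Car3, a carbonic anhydrase that hepatocytes also express, at 1408 and 1147 CPM in sham and 19.994 and 73.2 CPM in PMN livers (log2 fold change -4.78, adjusted p = 0.00311 by edgeR). Without PMN liver 1 the change of Car3 was -4.12 and without PMN liver 2 it was -6.0, and in the 6-liver fit the gene was not called (adjusted p = 0.0505).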
